A study of Mus musculus with 6 samples.

Results

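The genes described here encode the machinery that copies DNA in S phase and the enzymes that supply it with deoxynucleotides. All 45 were chosen by symbol, and they cover origin licensing, helicase activation, DNA polymerases, the sliding clamp and its loader, lagging strand maturation, single-strand DNA binding, deoxynucleotide synthesis, chromatin assembly and the G1/S switch. Each symbol matched 1 row of the deposited tables, which hold 55401 genes, and all 45 passed the filter on low counts that left 17159 genes for testing. Messenger RNA was sequenced from wild-type NIH3T3, a continuously growing fibroblast line derived from mouse embryos, in 3 libraries from cells given IPRN and 3 from cells given the DMSO vehicle. Angelicin, a furanocoumarin found in plants, appears in the title of the study, and its design text names hydrogen peroxide and TGF-β as stimuli used to bring the cells towards a cancer-associated fibroblast state. The sample labels give neither stimulus, dose nor time, so it is not stated whether the DMSO cells had been stimulated too. The comparison asked which genes and pathways IPRN altered in these fibroblasts.

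Before S phase, the origin recognition complex, Cdc6 and Cdt1 load the ring of Mcm2 to Mcm7 onto DNA as an inactive helicase. Cdc45 and the GINS complex then switch that helicase on, polymerase α and its primase lay down primers, and polymerases δ and ε extend them, helped by the PCNA clamp. Ribonucleotide reductase, a complex of Rrm1 and Rrm2, makes the deoxynucleotides. In cultured fibroblasts many of these genes are induced by E2F factors as cells leave G1. In bulk RNA, fewer cells in S phase and less RNA per cell cannot be told apart.

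Total counts ran from 63594179 to 74183334 in the IPRN libraries and from 60320282 to 78629444 in the DMSO libraries. Single counts of the 45 genes lay between 947 and 32452. The 10 fibroblast markers were all detected and summed to between 16941 and 20212 CPM (counts scaled to library size by the TMM method) in IPRN and between 17182 and 18083 CPM in DMSO. In the edgeR test given below, 2 of these 10 were called, beside 5.47% of all genes tested. In the hepatocyte, immune, endothelial and epithelial lists 0 genes were called. The 22 hepatocyte genes summed to between 5.91 and 124 CPM in IPRN and between 5.54 and 65.0 CPM in DMSO, lowest in IPRN 3 and DMSO 1. The 6 immune genes summed to between 7.58 and 21.9 CPM in IPRN, against 2.48 to 6.96 CPM in DMSO, with the T cell marker Cd3e at 0 in all 6 libraries. The 5 endothelial genes summed to between 1.43 and 2.74 CPM in IPRN, against 3.15 to 3.40 CPM in DMSO, and the 6 epithelial genes stayed at or below 2.52 CPM in every library. Their part in the results was not tested.

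Of the 45 genes, 3 fell under IPRN and 0 rose by edgeR's quasi-likelihood method, at a p adjusted over all genes by Benjamini and Hochberg's procedure. Rrm1 was 1.24-fold lower, Mcm6, a subunit of the helicase ring, 1.21-fold lower, and Pola1, the catalytic subunit of polymerase α, 1.35-fold lower. The 3 that fell are 6.67% of the 45, beside 3.01% of all genes tested that fell, 2.46% that rose and 5.47% that changed in either direction. Those shares include genes with far fewer counts than the 45, whose lowest single count was 947. With a mean of at least 50 counts required, edgeR called 4 of the 45 and 8.66% of all genes. DESeq2 called 6 of the 45 lower and 0 higher, adding Cdc6, Prim1 and Rrm2. It called 15.0% of all genes to which it gave an adjusted p, a share in either direction that was not split by direction.

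Most of the set sat slightly below its DMSO level without passing the test. The fitted log2 fold change was negative for 36 of 45 genes (80.0%) and for 49.8% of all genes tested, with a median of -0.062 over the 45 and 0.0016 over all genes. All 3 IPRN libraries lay below all 3 DMSO libraries for 14 of the 45 (31.1%), as they did for 14.7% of all genes. The opposite order held for 2 of the 45 (4.44%) and for 14.9% of all genes. At an unadjusted p under 0.05 in edgeR, 11 of the 45 (24.4%) were lower and 1 (2.22%) was higher, beside 10.8% of all genes lower and 11.2% higher. The set was put together with earlier results of these libraries known, so these counts describe it and do not set it apart. The shares over all genes again include genes with far fewer counts than the 45.

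The calls depended on which libraries entered the fit. None of the 45 was called by edgeR without DMSO 1, DMSO 2 or IPRN 2, where 0.739%, 0.808% and 1.32% of all genes were called and 9 of the 45 were lower at an unadjusted p under 0.05 in each fit. Pola1 was the 1 gene of the set called without DMSO 3 (1.04% of all genes), and Rrm1 the 1 called without IPRN 3 (1.46%). Without IPRN 1 the count was 4, made up of Rrm1, Rrm2, Mcm4 and Mcm6, where 5.86% of all genes were called. Without DMSO 1 and IPRN 3 together edgeR called 0 of the 45, of which 8 were lower at an unadjusted p under 0.05, and 0.3% of all genes. With all libraries, edgeR called 3 of the 45 and 5.48% of all genes after scaling by DESeq2's size factors, 3 and 2.29% with no filter on low counts, 4 and 8.66% with a mean of at least 50 counts required, and 0 and 0.6% with the replicate number as a block.

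**Figure D1:**
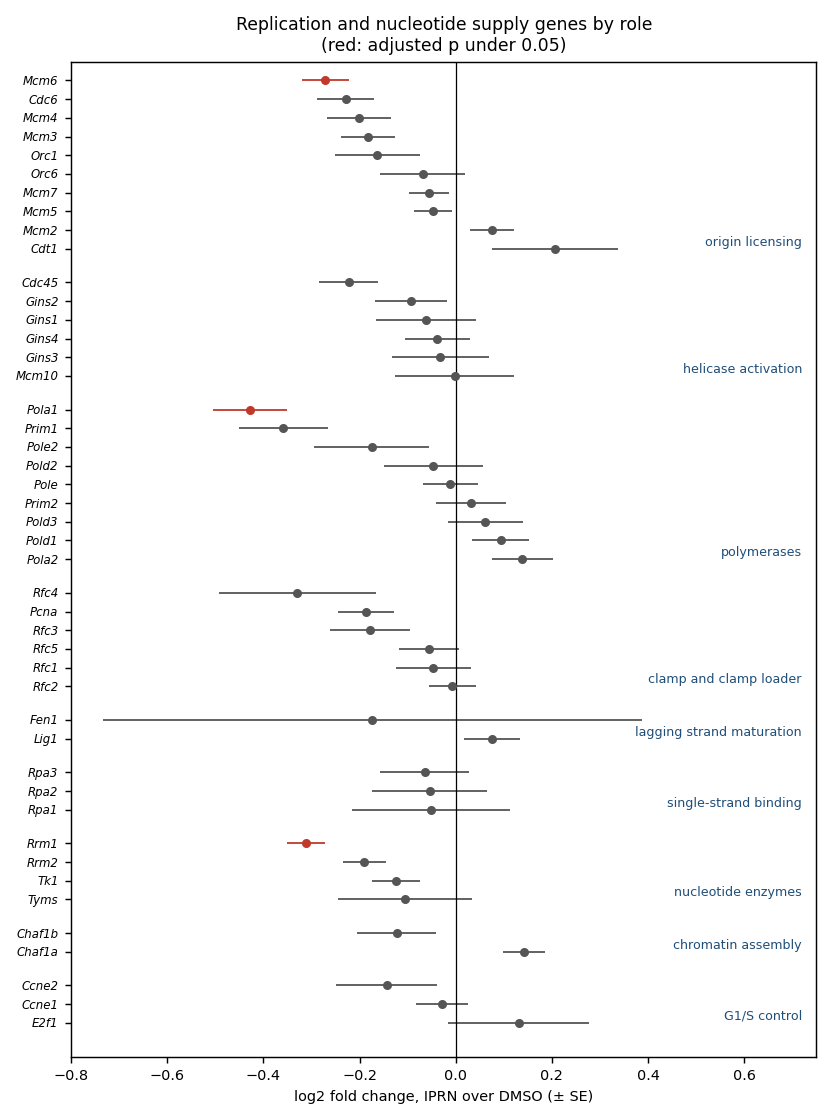
Fitted log2 fold change of IPRN over DMSO for each of the 45 genes (horizontal axis, points with ± SE bars), grouped by role, with genes called in red. Rrm1, Mcm6 and Pola1 are the 3 red points, all to the left of 0, and the bar of Fen1 is the widest at ± 0.561.

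The promoters of the 3 genes that fell are shown with that of 1 partner of each from the same complex that did not pass, as RefSeq gives them on GRCm38.p6. Each line holds the 250 bases before the annotated transcription start, 5′ to 3′ on the gene's own strand. Capitals mark matches on either strand to E2F-type letters, searched as TTTCCCGC, TTTCGCGC, TTTGCCGC and TTTGGCGC, or to CCAAT.
Mcm6 (chr1:128359706-128359955, minus strand): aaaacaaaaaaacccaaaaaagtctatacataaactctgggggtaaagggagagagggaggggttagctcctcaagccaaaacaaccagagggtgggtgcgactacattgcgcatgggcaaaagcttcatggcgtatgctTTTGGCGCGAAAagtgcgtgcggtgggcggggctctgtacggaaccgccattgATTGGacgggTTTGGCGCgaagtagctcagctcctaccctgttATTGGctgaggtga
Mcm2 (chr6:88898781-88899030, minus strand): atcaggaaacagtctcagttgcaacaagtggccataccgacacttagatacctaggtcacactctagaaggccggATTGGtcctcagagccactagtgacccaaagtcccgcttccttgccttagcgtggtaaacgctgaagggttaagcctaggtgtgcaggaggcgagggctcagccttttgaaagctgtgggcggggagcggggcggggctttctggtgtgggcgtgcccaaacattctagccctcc
Pola1 (chrX:93632156-93632405, minus strand): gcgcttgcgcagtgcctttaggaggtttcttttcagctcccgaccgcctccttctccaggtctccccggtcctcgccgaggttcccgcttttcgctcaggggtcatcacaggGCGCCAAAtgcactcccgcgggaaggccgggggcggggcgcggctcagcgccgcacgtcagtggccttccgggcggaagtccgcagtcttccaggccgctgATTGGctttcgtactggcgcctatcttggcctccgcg
Pola2 (chr19:5964207-5964456, minus strand): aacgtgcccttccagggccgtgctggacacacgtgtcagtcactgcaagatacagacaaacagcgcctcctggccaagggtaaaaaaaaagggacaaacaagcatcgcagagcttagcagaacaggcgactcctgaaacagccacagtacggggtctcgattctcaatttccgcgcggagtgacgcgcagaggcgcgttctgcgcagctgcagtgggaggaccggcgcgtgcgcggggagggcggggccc
Rrm1 (chr7:102441445-102441694, plus strand): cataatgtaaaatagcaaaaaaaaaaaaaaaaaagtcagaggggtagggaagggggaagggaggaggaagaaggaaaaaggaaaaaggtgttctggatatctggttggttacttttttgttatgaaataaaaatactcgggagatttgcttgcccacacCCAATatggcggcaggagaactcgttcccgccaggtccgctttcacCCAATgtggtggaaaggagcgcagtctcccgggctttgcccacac
Rrm2 (chr12:24708004-24708253, plus strand): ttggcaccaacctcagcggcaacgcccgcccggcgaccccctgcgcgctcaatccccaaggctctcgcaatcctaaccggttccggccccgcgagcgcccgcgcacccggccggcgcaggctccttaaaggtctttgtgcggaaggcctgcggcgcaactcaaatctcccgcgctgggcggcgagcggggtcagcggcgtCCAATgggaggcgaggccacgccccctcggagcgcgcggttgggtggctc
In these 250 bases the E2F-type letters matched at 3 places in Mcm6, of which the first 2 overlap on opposite strands, and at 1 place in Pola1. They matched at 0 places in Rrm1, Mcm2, Pola2 and Rrm2. CCAAT matched at 2 places in Mcm6 and in Rrm1, at 1 place in Mcm2, Pola1 and Rrm2, and at 0 places in Pola2. Over the whole 300-base window, which reaches 50 bases past the start, 14 of the 37 genes of the set with a RefSeq promoter held an E2F-type match (37.8%), as did 2.60% of all 27025 symbols in that table. In the 250 bases before the start, 8 of the 37 held an E2F-type match (21.6%), as did 2.16% of all symbols. Besides Mcm6 and Pola1 these were Orc1, Cdc6, Mcm5, Mcm7, Gins3 and Rfc3, which edgeR did not call. The 6 promoters shown thus do not stand for the set, and a link between matches and calls was not tested. CCAAT was held by 22 of the 37 (59.5%) over either stretch. Of all symbols, 41.1% held it over the whole window and 37.5% in the 250 bases before the start. A match is a stretch of letters and does not show binding.

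Among the 10 origin licensing genes 1 fell and 0 rose in edgeR, with a median log2 fold change of -0.12. At an unadjusted p under 0.05, 4 were lower and 0 higher. Beside this and the counts by role below, edgeR called 3.01% of all genes lower and 2.46% higher. At an unadjusted p under 0.05, 10.8% of all genes were lower and 11.2% higher, and DESeq2 called 15.0% in either direction. Mcm6 (ENSMUSG00000026355, protein-coding, chr1:128331590-128359664 on the minus strand of GRCm38) measured 238, 219.9 and 228 CPM in IPRN 1, 2 and 3, against 269, 283 and 276 CPM in DMSO 1, 2 and 3. Every IPRN library was below every DMSO library, and the log2 fold change was -0.27 ± 0.049 (SE, edgeR adjusted p = 0.0293). Leaving out IPRN 2, IPRN 3 or any 1 DMSO library ended the call, with an adjusted p between 0.0835 and 0.135, while the log2 fold change over all 6 such fits ran from -0.30 to -0.24.

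The other ring subunits did not pass. Mcm3 measured 226, 248 and 255 CPM in IPRN 1, 2 and 3, against 279.8, 271 and 276 CPM in DMSO 1, 2 and 3 (edgeR adjusted p = 0.115). Mcm4 averaged 177 ± 15.5 CPM in IPRN and 203 ± 1.03 CPM in DMSO (SD, n = 3 each), with IPRN 1 the highest of its group at 195 CPM (edgeR adjusted p = 0.136, and 0.0133 without IPRN 1). Mcm5 averaged 205 ± 2.81 CPM in IPRN and 212 ± 2.59 CPM in DMSO (edgeR adjusted p = 0.570). Mcm7 averaged 222 ± 3.24 and 231 ± 4.73 CPM in the same order (edgeR adjusted p = 0.504). For Mcm3 to Mcm7 every IPRN library lay below every DMSO library, as for 14.7% of all genes tested. The Mcm2 groups overlapped, at 283 ± 7.15 CPM in IPRN and 269 ± 8.28 CPM in DMSO (edgeR adjusted p = 0.412). The log2 fold changes of Mcm5 and Mcm7, -0.048 and -0.057, were smaller in size than that of Mcm2, 0.075. Within the ring, the fitted log2 differences thus ran from -0.27 for Mcm6 to 0.08 for Mcm2.

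Cdc6, the ATPase that recruits the ring to the origin, measured 43.6, 43.5 and 45 CPM in IPRN libraries and 53.3, 52.5 and 49.1 CPM in DMSO libraries. The groups were separate, but Cdc6 missed the threshold in edgeR (log2 fold change -0.23 ± 0.060, adjusted p = 0.0778) and passed in DESeq2 (adjusted p = 0.0451). Cdt1, its partner in loading, measured 63.9, 44.1 and 50.6 CPM in IPRN libraries, against 46.4, 44.5 and 46.7 CPM in DMSO libraries. IPRN 1 alone was far above the rest, and the groups overlapped (edgeR adjusted p = 0.435). Orc1 and Orc6, subunits of the origin recognition complex, averaged 35.1 ± 2.67 and 46.0 ± 4.14 CPM in IPRN, and 39.2 ± 2.97 and 48.2 ± 3.28 CPM in DMSO, with overlapping groups.

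Of the 6 helicase activation genes, edgeR and DESeq2 called 0. At an unadjusted p under 0.05 1 was lower, beside 10.8% of all genes. That gene was Cdc45, a core subunit of the active helicase, with 48.0, 49.5 and 51.8 CPM in IPRN libraries and 60.5, 55.8 and 57.7 CPM in DMSO libraries. Its groups did not overlap (log2 fold change -0.22 ± 0.061, edgeR adjusted p = 0.0851). Gins2, a GINS subunit, measured 45.2, 53.2 and 49.1 CPM in IPRN libraries and 50.6, 53.7 and 53.1 CPM in DMSO libraries, with an adjusted p of 0.545 in edgeR. The other GINS genes, Gins1, Gins3 and Gins4, and the firing factor Mcm10 had overlapping groups and log2 fold changes from -0.06 to -0.0024, and Mcm10 was spread from 40.8 CPM in IPRN 2 to 57.8 CPM in IPRN 1.

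Among the 9 polymerase genes 1 fell and 0 rose in edgeR, with a median log2 fold change of -0.011, and 2 were lower and 0 higher at an unadjusted p under 0.05. Pola1 (ENSMUSG00000006678, protein-coding, chrX:93304767-93632155 on the minus strand of GRCm38) measured 60.7, 65.3 and 59.8 CPM in IPRN 1, 2 and 3, against 85.2, 89.3 and 75.6 CPM in DMSO 1, 2 and 3. The groups were separated by more than 10 CPM, and the log2 fold change of -0.43 ± 0.076 (SE) was the most negative of the 45 (edgeR adjusted p = 0.0291). Leaving out DMSO 1, DMSO 2 or any 1 IPRN library ended the call, with an adjusted p between 0.0525 and 0.123, and over the 6 fits with 1 library left out the log2 fold change ran from -0.49 to -0.37.

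The fitted differences of the 4 polymerase α-primase subunit genes had different signs. Prim1, the catalytic primase subunit, measured 39.4, 49.4 and 47.7 CPM in IPRN libraries and 56.8, 60.4 and 57.8 CPM in DMSO libraries. Its groups were separate, with IPRN 1 the lowest, and it did not pass in edgeR (log2 fold change -0.36 ± 0.093, adjusted p = 0.0764) but passed in DESeq2 (adjusted p = 0.0115). Pola2, the regulatory subunit, lay the other way, with 91.3, 84.4 and 80.4 CPM in IPRN libraries, against 75.4, 77.0 and 80.3 CPM in DMSO libraries (edgeR adjusted p = 0.262). Prim2, the large primase subunit, averaged 49.9 ± 4.02 CPM in IPRN and 48.8 ± 1.18 CPM in DMSO.

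The leading and lagging strand polymerases showed no separation of the groups. Pold1, the catalytic subunit of polymerase δ, averaged 64.8 ± 1.48 CPM in IPRN and 60.7 ± 3.25 CPM in DMSO, and Pole, that of polymerase ε, 64.1 ± 1.89 and 64.6 ± 2.80 CPM in the same order (edgeR adjusted p = 0.435 and 0.946). The accessory subunit genes Pold2, Pold3 and Pole2 had log2 fold changes of -0.05, 0.06 and -0.18, and their groups overlapped.

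**Figure D2:**
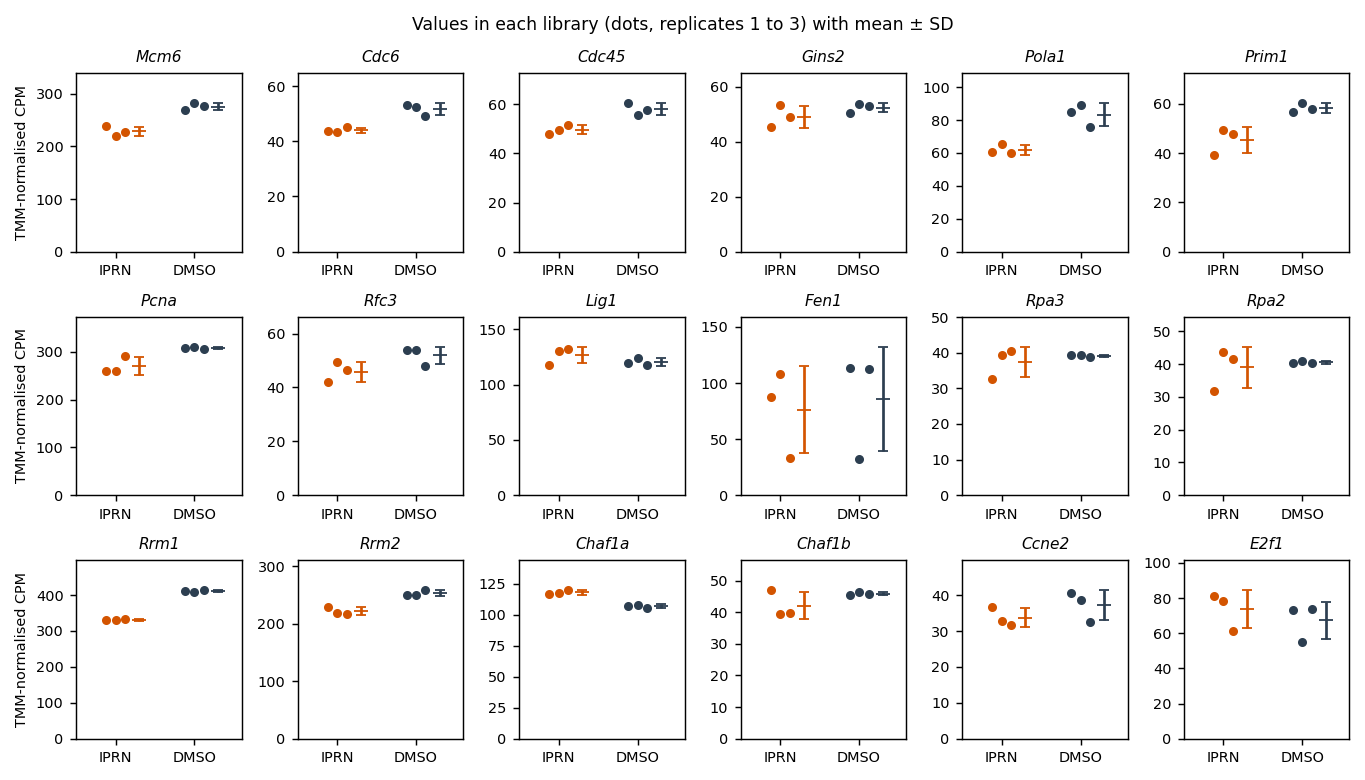
TMM-normalised CPM (vertical axis, from 0) in each library for 18 of the 45 genes, namely the 2 with the smallest adjusted p in each role, with IPRN left of DMSO, dots for libraries and bars for mean ± SD. The dots of Rrm1 lie between 329.8 and 335 CPM in IPRN and between 409 and 414 CPM in DMSO, while Fen1 has 1 library near 33 CPM in IPRN and 1 near 32.2 CPM in DMSO.

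All 6 clamp and clamp loader genes had a negative log2 fold change, with a median of -0.12, and edgeR and DESeq2 called 0 of them. At an unadjusted p under 0.05, 1 was lower and 0 were higher, beside 10.8% and 11.2% of all genes. Pcna, the sliding clamp, measured 259.8, 260.3 and 292 CPM in IPRN libraries, against 308, 311 and 305 CPM in DMSO libraries (log2 fold change -0.19 ± 0.058, edgeR adjusted p = 0.115). The groups did not overlap, and IPRN 3 was closest to the DMSO range. Rfc4, a loader subunit, also had separate groups, with 13.3, 20 and 20 CPM in IPRN libraries and 23.3, 22.3 and 21.4 CPM in DMSO libraries, and IPRN 1 was the lowest of the 6 (edgeR adjusted p = 0.303).

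The other loader subunit genes overlapped between groups. Rfc3 measured 42.0, 49.3 and 46.4 CPM in IPRN libraries and 53.7, 53.9 and 48.1 CPM in DMSO libraries (edgeR adjusted p = 0.271). Rfc1, the large subunit, averaged 76.0 ± 7.17 CPM in IPRN and 78.5 ± 3.61 CPM in DMSO, and Rfc2 74.0 ± 0.444 and 74.3 ± 2.5 CPM in the same order. Rfc5 had a log2 fold change of -0.06 ± 0.063.

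Fen1, the flap nuclease that trims Okazaki fragments, had the widest spread of the set. It measured 87.9, 108 and 33.0 CPM in IPRN 1, 2 and 3 and 113, 32.2 and 112 CPM in DMSO 1, 2 and 3. IPRN 3 and DMSO 2 thus stood far below the other 4 libraries, in both groups, and no difference between the groups was detectable (edgeR adjusted p = 0.908). Fen1 shares exon stretches with Tmem258 and the antisense model Gm10143 on the other strand, and these stayed between 61.4 and 76.3 CPM and between 1.88 and 2.79 CPM over the 6 libraries. Lig1, the ligase that seals the fragments, measured 118, 130.4 and 132 CPM in IPRN libraries and 119, 124 and 118 CPM in DMSO libraries (edgeR adjusted p = 0.536).

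The 3 subunits of replication protein A, which coats single-stranded DNA, all had overlapping groups. Rpa1 measured 210.5, 151 and 158 CPM in IPRN libraries and 165, 157 and 216 CPM in DMSO libraries, so 1 library of each group lay apart. Rpa2 measured 31.8, 43.9 and 41.5 CPM in IPRN libraries and 40.5, 40.9 and 40.2 CPM in DMSO libraries. Rpa3 had the same shape, with 32.5, 39.5 and 40.4 CPM in IPRN libraries and 39.4, 39.3 and 38.9 CPM in DMSO libraries. For both, IPRN 1 was the lowest of the 6, and without it the sign turned (log2 fold change 0.07 for Rpa2 and 0.03 for Rpa3). Neither passed in edgeR (adjusted p = 0.857 for Rpa2 and 0.764 for Rpa3).

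The 4 nucleotide enzyme genes all had a negative log2 fold change, with the lowest median of the roles at -0.16. In edgeR 1 fell and 0 rose, and at an unadjusted p under 0.05 3 were lower and 0 higher. Rrm1, the large subunit of ribonucleotide reductase (ENSMUSG00000030978, protein-coding, chr7:102441695-102469771 on the plus strand of GRCm38), measured 330.3, 329.8 and 335 CPM in IPRN 1, 2 and 3, against 412, 409 and 414 CPM in DMSO 1, 2 and 3. The replicates of each group lay within 6 CPM of one another, and the log2 fold change was -0.31 ± 0.039 (SE, edgeR adjusted p = 0.0110). Rrm1 was still called without IPRN 1 or IPRN 3, but lost the call when IPRN 2 or any 1 DMSO library was left out, with an adjusted p between 0.0520 and 0.0718. Its log2 fold change stayed between -0.32 and -0.30 whichever library was left out.

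Rrm2, the small subunit whose level follows S phase, measured 229.5, 219 and 216 CPM in IPRN libraries and 251, 250.0 and 259 CPM in DMSO libraries. The groups were separate, and Rrm2 missed the threshold in edgeR (log2 fold change -0.19 ± 0.045, adjusted p = 0.0588), passed in DESeq2 (adjusted p = 0.0328), and passed in edgeR without IPRN 1 (adjusted p = 0.0279). Tk1, the thymidine salvage kinase, measured 85.9, 88.0 and 84.4 CPM in IPRN libraries, against 97.2, 94.0 and 90.4 CPM in DMSO libraries, also without overlap (edgeR adjusted p = 0.205). Tyms, thymidylate synthase, overlapped widely, at 68.5 ± 12 CPM in IPRN and 73.7 ± 8.26 CPM in DMSO. The 4 genes together summed to 713, 718 and 693 CPM in IPRN libraries and to 828, 822 and 846 CPM in DMSO libraries, a ratio of the means of 0.851. That sum is mostly Rrm1 and Rrm2.

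By the same measure, the summed CPM of origin licensing genes in IPRN stood at 0.930 of its DMSO mean. The sum of clamp and clamp loader genes stood at 0.910, that of helicase activation genes at 0.941 and that of polymerase genes at 0.947. Single-strand binding genes stood at 0.963 and lagging strand maturation genes at 0.984, and for both the sums overlapped between groups. Single-strand binding sums averaged 250 ± 22.0 CPM in IPRN and 259 ± 31.6 CPM in DMSO (SD). Lagging strand sums averaged 203 ± 36.8 and 206 ± 43.2 CPM in the same order. The sums of G1/S control and chromatin assembly genes were not lower, at 1.01 and 1.05. Those of G1/S control genes overlapped too, at 189 ± 12.1 CPM in IPRN and 188 ± 11.1 CPM in DMSO. The sum over all 45 genes was 4341, 4283 and 4189 CPM in IPRN libraries and 4622, 4520 and 4679 CPM in DMSO libraries. These sums are led by the abundant genes and were not tested against one another.

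The chromatin assembly factor genes had fitted differences of opposite sign, and neither passed. Chaf1a, the large subunit of the complex that deposits histones behind the fork, measured 116, 117 and 119.8 CPM in IPRN libraries, against 107, 108 and 105 CPM in DMSO libraries. It was the 1 gene of the set that was higher at an unadjusted p under 0.05, with a log2 fold change of 0.14 ± 0.043, and it did not pass (edgeR adjusted p = 0.110). Chaf1a shares exon stretches with Ubxn6 on the other strand. Chaf1b measured 47.0, 39.5 and 39.7 CPM in IPRN libraries and 45.5, 46.4 and 45.6 CPM in DMSO libraries, with IPRN 1 apart from its group (edgeR adjusted p = 0.461).

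None of the 3 G1/S genes was called by edgeR or DESeq2, and 0 had an unadjusted p under 0.05. E2f1, the activator of the S phase programme, measured 81.4, 78.6 and 61.3 CPM in IPRN libraries and 73.2, 55.3 and 73.6 CPM in DMSO libraries. Ccne1, a cyclin E gene, averaged 81.5 ± 3.73 CPM in IPRN and 83.1 ± 2.14 CPM in DMSO, and the other, Ccne2, measured 36.6, 32.9 and 31.6 CPM in IPRN libraries and 40.7, 38.5 and 32.6 CPM in DMSO libraries. All 3 had overlapping groups (edgeR adjusted p from 0.5 to 0.833).

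Ratios of partners within a library do not depend on scaling between libraries. Mcm6 over Mcm2 counts were 0.858, 0.755 and 0.810 in IPRN libraries, against 1.03, 1.06 and 0.994 in DMSO libraries. Pola1 over Pola2 counts were 0.664, 0.774 and 0.744 in IPRN libraries and 1.13, 1.16 and 0.942 in DMSO libraries, and Prim1 over Prim2 counts averaged 0.921 ± 0.171 in IPRN and 1.20 ± 0.0490 in DMSO. The ratio of Rrm1 to Rrm2 counts was closer between groups, at 1.5 ± 0.0541 in IPRN and 1.63 ± 0.0229 in DMSO. All 4 ratios were lower in every IPRN library than in every DMSO library. The two-sided exact permutation p was 0.1 for each, and 0.1 after adjustment over the 4, the smallest that 3 libraries against 3 can give. The 4 pairs were chosen after their values were seen.

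Levels between genes were set side by side in the deposited FPKM, which divides counts by gene length. Pcna was the most abundant, at 102 ± 8.20 FPKM in IPRN and 115 ± 1.33 FPKM in DMSO, followed by Rrm2 at 72.0 ± 1.06 and 82.0 ± 1.38 FPKM in the same order. The ring subunits lay close together, from 36.6 FPKM for Mcm2 to 58.3 FPKM for Mcm3 in IPRN and from 34.7 to 66.0 FPKM for the same genes in DMSO. Genes for loading the ring were at lower levels, with Cdc6 at 7.57 and Orc6 at 16.7 FPKM in IPRN, and 8.86 and 17.5 FPKM in DMSO. Pold3 was the lowest of the set, at 3.69 ± 0.0983 FPKM in IPRN and 3.53 ± 0.0916 FPKM in DMSO.

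Within the other roles, Gins4 was the highest of the helicase activation genes (27.7 FPKM in IPRN and 28.3 FPKM in DMSO) and Gins3 the lowest in both groups (5.46 and 5.57 FPKM). Pold2 led the polymerase genes at 23.8 FPKM in IPRN and 24.6 FPKM in DMSO. The loader subunits Rfc1 to Rfc5 lay between 9.81 and 11.4 FPKM in IPRN and between 10.2 and 13.1 FPKM in DMSO. These levels depend on the gene length the authors used, which counted from the deposited values was 12248 bases for Rrm1, against 3997 bases for its main coding transcript in GENCODE M21. Per kilobase of that transcript, Rrm1 stood at 83.0 CPM in IPRN and 103 CPM in DMSO and Rrm2 at 101 and 115 CPM in the same order, so the gap between both subunits was narrower on that scale than in FPKM. On that scale the leading polymerase gene was not Pold2 (30.6 CPM per kilobase in IPRN and 31.6 in DMSO) but Pola2 in IPRN, at 35.3, and Prim1 in DMSO, at 36.8. The loader subunits spread further apart too, from 14.5 for Rfc4 to 34.8 for Rfc3 in IPRN and from 14.9 for Rfc2 to 39.4 for Rfc3 in DMSO. By that length, Mcm4 and not Mcm2 was the lowest ring subunit (49.3 CPM per kilobase in IPRN and 56.6 in DMSO).

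**Figure D3:**
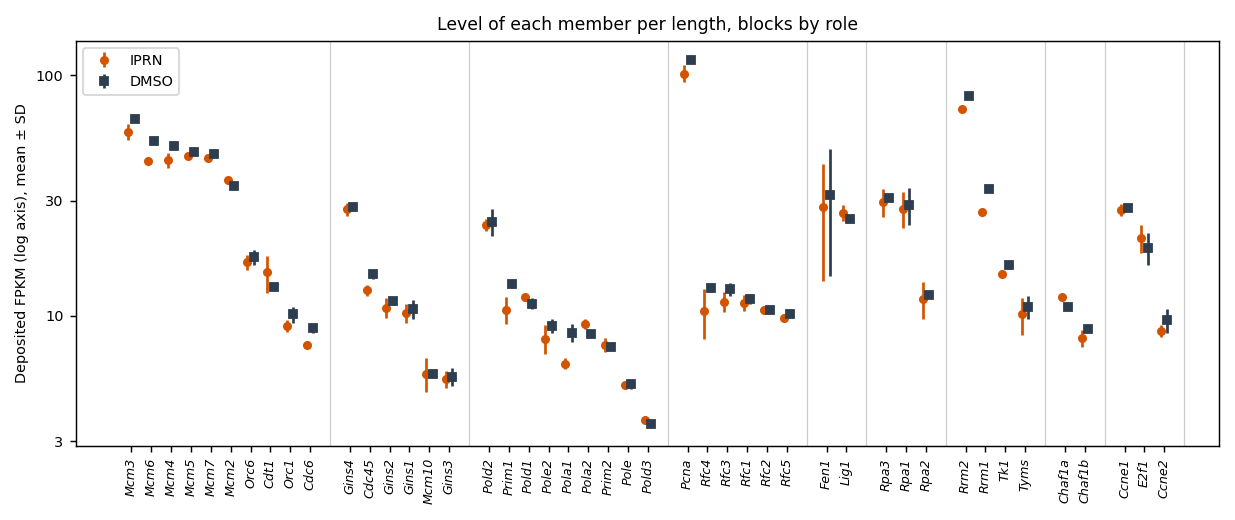
Deposited FPKM (vertical log axis) of each gene as mean ± SD over 3 libraries, IPRN as circles left of DMSO as squares, in blocks by role and sorted by the DMSO level. Pcna is highest at 102 FPKM in IPRN and 115 FPKM in DMSO, and Pold3 is lowest.

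Libraries differed in how far single genes strayed. In IPRN 1, 14 of the 45 genes lay over 15% from the mean of the other 2 IPRN libraries, against 7 in IPRN 2 and 4 in IPRN 3. The same count was 2 in DMSO 1, 3 in DMSO 2 and 5 in DMSO 3. These counts cover the 45 genes only and were not made over all genes. Over the whole libraries, replicate pairs with IPRN 1 also differed most, with a chi-square over its degrees of freedom of 89.9 and 97.6. IPRN 1 was the highest of its group for 20 of the 45 genes and the lowest for 18, so it did not lie to 1 side. It was highest for Cdt1, Mcm10, Mcm4 and Pole2 and lowest for Rfc4, Prim1, Rpa2 and Rpa3. The median within-group SD of log2 CPM over the set was 0.088, and Fen1, at 0.98, was the most variable.

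**Figure D4:**
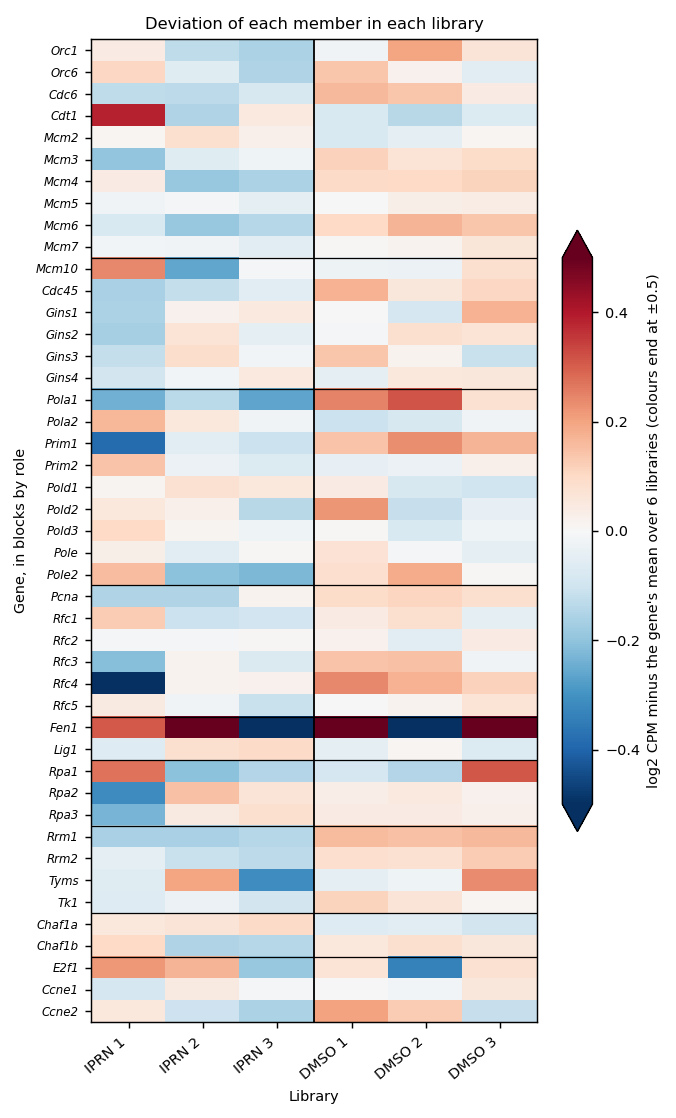
Log2 CPM of each of the 45 genes (rows, in blocks by role) in each library (columns, IPRN left of DMSO) minus the mean of that gene over the 6 libraries, red above and blue below, with colours ending at ± 0.5. Rrm1 is evenly blue in the 3 IPRN libraries and red in the 3 DMSO libraries, whereas Fen1 is blue in IPRN 3 and DMSO 2.

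Other genes of the same processes were read from further lists, whose counts stand beside the shares over all genes: edgeR called 3.01% lower and 2.46% higher, 10.8% were lower and 11.2% higher at an unadjusted p under 0.05, and DESeq2 called 15.0% in either direction. Of 42 tested replication factors outside the set, 3 fell and 0 rose in edgeR, with a median log2 fold change of -0.078, and 14 were lower and 4 higher at an unadjusted p under 0.05 (DESeq2 called 9 lower and 0 higher). Nasp, a histone chaperone, was 1.21-fold lower at 179 ± 4.65 CPM in IPRN and 217 ± 5.45 CPM in DMSO (edgeR adjusted p = 0.0234). Orc2, a core origin recognition subunit, was 1.18-fold lower, and Top2a, topoisomerase IIα, 1.16-fold lower, at edgeR adjusted p-values of 0.0341 and 0.0407. Each of the 3 was called without IPRN 1 but in none of the other 5 fits with 1 library left out (adjusted p from 0.0660 to 0.167).

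Purine and pyrimidine synthesis genes feed the ribonucleotide pool from which deoxynucleotides are made. Of 23 tested, 5 fell and 0 rose in edgeR, with a median log2 fold change of -0.11 (9 lower and 1 higher at an unadjusted p under 0.05). DESeq2 called 6 lower and 1 higher, the last being Cad, which starts pyrimidine synthesis, at 225 ± 6.43 CPM in IPRN and 198 ± 5.39 CPM in DMSO (edgeR adjusted p = 0.0686). Prps1, which makes the ribose precursor, was 1.42-fold lower, at 47.1, 55.5 and 56.7 CPM in IPRN libraries and 76.6, 73.7 and 76.1 CPM in DMSO libraries (edgeR adjusted p = 0.0208). Adss, an adenylosuccinate synthase gene, averaged 152 ± 2.94 CPM in IPRN and 188 ± 3.04 CPM in DMSO, and Gmps, GMP synthase, 147 ± 5.18 CPM in IPRN and 182 ± 4.35 CPM in DMSO (edgeR adjusted p = 0.0140 and 0.0200). Paics and Ctps, of purine and cytidine nucleotide synthesis, fell too. Prps1 was called without IPRN 1 or IPRN 3, and the other 4 without IPRN 1, but none of the 5 when IPRN 2 or any 1 DMSO library was left out, with an adjusted p between 0.0519 and 0.152 where a call was lost.

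Of 25 other deoxynucleotide supply genes, which include Dut and Rrm2b, edgeR called 0, with 4 lower and 3 higher at an unadjusted p under 0.05 and a median of -0.083 (DESeq2 called 3 lower and 1 higher). Among 28 other G1/S and E2F control genes 1 rose and 0 fell in edgeR, with a median of 0.046 (2 lower and 2 higher at an unadjusted p under 0.05). DESeq2 called 1 higher and 1 lower, the lower one being Myc, a growth-promoting transcription factor, at 77.8 ± 12.5 CPM in IPRN and 103 ± 1.84 CPM in DMSO (edgeR adjusted p = 0.0802). The gene that rose in edgeR was Cdk2, the kinase partner of cyclin E, at 54.3, 50.3 and 50.4 CPM in IPRN libraries and 35.4, 34.6 and 29.3 CPM in DMSO libraries (1.56-fold, edgeR adjusted p = 0.0147). Its call was lost when DMSO 1, DMSO 2, IPRN 2 or IPRN 3 was left out, with an adjusted p between 0.0502 and 0.0688. Cdk2 shares exon stretches with Pmel on the other strand, whose counts over all libraries totalled only 90.

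Among 26 mitotic genes 1 fell and 1 rose in edgeR, with a median of -0.022 and with 4 lower and 4 higher at an unadjusted p under 0.05. DESeq2 called 1 lower and 2 higher, adding Ube2c, a mitotic ubiquitin-conjugating enzyme gene, at 159 ± 24.3 CPM in IPRN and 127 ± 3.25 CPM in DMSO (edgeR adjusted p = 0.132). Ccnb1, or cyclin B1, was lower at 97.2 ± 8.29 CPM in IPRN and 129 ± 10.8 CPM in DMSO (edgeR adjusted p = 0.0468), but lost the call whichever of the 6 libraries was left out, with an adjusted p between 0.0652 and 0.170. Plk1, a mitotic kinase, was higher at 106 ± 3.71 CPM in IPRN and 81.4 ± 2.55 CPM in DMSO (adjusted p = 0.0143), and lost the call when IPRN 3 or any 1 DMSO library was left out, with an adjusted p between 0.0502 and 0.0773. Of 19 replication stress genes edgeR called 0, with 8 lower and 1 higher at an unadjusted p under 0.05 and a median of -0.063 (DESeq2 called 2 lower and 1 higher).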

How the data were processed

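The authors deposited 1 table per library that gives each Ensembl gene a whole-number count and an FPKM value, per the file headers. Per the labels' protocols, mRNA was captured on oligo(dT) beads and primed with random hexamers, and no step marks the strand. The submitters' processing notes list cutadapt 1.9. The aligner, counter and build are not stated in what was read here. Among 55141 gene IDs also found in GENCODE M21, 94.2% had the same position on GRCm38, so positions are as deposited on that build. Of the 45 genes, 16 share exon stretches with another gene model, so their values are uncertain: Orc1, Orc6, Mcm7, Cdc45, Gins2, Pole, Pole2, Rfc2, Rfc4, Rfc5, Fen1, Lig1, Rpa1, Tk1, Chaf1a and Ccne2, as do Orc2, Top2a, Paics, Cdk2 and Plk1 outside the set.

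Tests on the deposited counts used edgeR 4.0.16 under R 4.3.3 (TMM scaling, default filter with a minimum count of 10, quasi-likelihood test, group as the only term), two-sided, with Benjamini-Hochberg adjustment over 17159 genes and a threshold of 0.05. DESeq2 1.42.0 was an alternative. SE came from the log2 fold change and its F statistic. The authors' FPKM, scaled by gene length and library size, only compared levels between genes. Both tools were checked on counts simulated with edgeR's dispersion estimates, where DESeq2 made the larger share of false calls. That setting rests on edgeR's own estimates and draws each library independently, with none that strays. It therefore cannot rank the tools on these data. Replicate pairs differed by more than counting noise, with a chi-square over its degrees of freedom between 34.0 and 97.6 and the 2 highest values in pairs with IPRN 1. The labels do not say whether replicates are separate cultures, so p-values measure only how these libraries vary, which may be technical.

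The genes, lists and alternatives were chosen with earlier results of these data known. Values by library are given for called genes of the set and for the 2 with the smallest adjusted p in each role. Others named with values by library were chosen after these were seen. From each further list, genes called by edgeR are named, and Cad, Myc and Ube2c were added after their values were seen.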

Additional observations from a re-analysis of the deposited data

How the results depend on the processing

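The count of genes called moved from 938 to 621 without a filter on low counts, 1911 in DESeq2, 103 with the replicate block and 53 without DMSO 1 and IPRN 3, and ran from 133 to 1047 with 1 library left out. The count of the 45 genes called was 6 in DESeq2, 0 with the replicate block (10 lower and 1 higher at an unadjusted p under 0.05 in edgeR) and 0 without DMSO 1 and IPRN 3, and ran from 0 to 4 with 1 library left out. It was 3 with DESeq2's size factors or without the filter, 4 with a mean of at least 50 counts, and 3 among the 29 genes without exon overlap, an alternative chosen after seeing the data. Fits with libraries left out hold fewer samples, and the cause of the other shifts was not tested. The median log2 fold change of the 45 stayed negative in every fit run, from -0.096 (without IPRN 1) to -0.047 (without IPRN 3) with 1 library left out, and was -0.055 without exon overlap. Replicate numbers gave correlations of deviations from the group means of -0.18, 0.086 and -0.13 for numbers 1, 2 and 3. Of the 3 IPRN libraries, 1 correlated best with its own number. The highest value was 0.24, for IPRN 3 with DMSO 1, the libraries with the lowest hepatocyte sums. Deviations of 3 libraries from their mean sum to 0, so these values constrain one another. They cannot show whether the numbers pair the libraries, nor whether the fit with the block should be preferred. Among the 18 genes plotted by library, Fen1 turned its sign without DMSO 1 (0.076), DMSO 3 (0.067), IPRN 3 (0.18) or both DMSO 1 and IPRN 3 (0.43), and Rpa2 (0.073) and Rpa3 (0.028) did so without IPRN 1; with 1 library left out they ranged from -0.56 to 0.18, -0.14 to 0.073 and -0.13 to 0.028. Of 216 values of these genes under alternatives, 185 kept their direction and side of the threshold, 20 lost and 5 gained a call, and 6 turned. Every count of the 45 genes was at least 947.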
